A study of Homo sapiens with 4 samples.

Results

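The genes described here belong to the Wnt pathway: the enzymes that prepare the Wnt signal, the ligands, their receptors, the secreted antagonists, the intracellular core and the targets. They were chosen by gene symbol as a fixed list of 46 genes, and all 46 were among the 25343 symbols measured. The data are 4 RNA-seq libraries of human hepatocellular carcinoma lines, with 1 library a group: Huh7 SCD knockdown, Huh7 control, PLC/PRF/5 SCD knockdown and PLC/PRF/5 control. Huh7 and PLC/PRF/5 are established lines from liver tumours, and PLC/PRF/5 is known to carry integrated hepatitis B virus DNA. In the knockdown groups a lentivirus delivered a short hairpin RNA against SCD (labelled SCD1), the stearoyl-CoA desaturase. The control groups, labelled as vector control, received a non-target hairpin (NTC) in the same way, so all 4 cultures carry a lentiviral insert and went through puromycin selection. Each line received the same hairpin, so an effect of that sequence on other transcripts and an effect of lower SCD cannot be told apart.

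A Wnt ligand is secreted only after the enzyme porcupine has attached a monounsaturated fatty acid, palmitoleate, to a conserved serine, and SCD is the main enzyme that makes such fatty acids. The lipid sits in a groove of the Frizzled receptors, which act with LRP5 or LRP6 to stop the AXIN, APC and GSK3 complex from degrading beta-catenin. Beta-catenin then joins TCF and LEF factors at target genes, several of which encode inhibitors of the same pathway. In the liver this signal marks hepatocytes near the central vein, and the pathway is often mutated in hepatocellular carcinoma.

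SCD, the targeted gene, was at 137 TPM in the Huh7 SCD knockdown library, against 1755 TPM in the Huh7 control. The PLC/PRF/5 pair had 178 TPM in the knockdown and 1111 TPM in the control. It was thus 12.8-fold and 6.25-fold lower by the ratio of TPM, a level scaled for transcript length and for the library total. SCD5, the other desaturase gene of this kind in humans, was at 2.86 and 3.51 TPM in the Huh7 knockdown and control, and at 5.28 and 3.71 TPM in the PLC/PRF/5 pair (limma adjusted p = 0.849). Of 8 hepatocyte marker genes, 8 had at least 1 TPM in each Huh7 library and 7 in each PLC/PRF/5 library, where TTR was at 0.41 TPM or less. Their summed level was 26439 and 28717 TPM in the Huh7 knockdown and control, and 2804 and 3780 TPM in the PLC/PRF/5 knockdown and control. Single markers had log2 fold changes, as log2((knockdown TPM + 1)/(control TPM + 1)), of either sign: ALB, the albumin gene, had 0.69 in Huh7 and -0.73 in PLC/PRF/5, FGB, a fibrinogen gene, 0.25 and -1.62, and AFP, the fetal alpha-fetoprotein gene, -0.58 and -1.20. APOA1 (-0.37 and -0.85), APOB (-0.55 and -0.26) and SERPINA1 (-0.35 and -0.42) were, like AFP, lower in both lines. TTR had -0.25 in Huh7, and HNF4A (0.27 and 0.14) was higher in both lines. The endothelial markers CDH5 and VWF and the leukocyte markers PTPRC and CD3E were under 1 TPM in every library, and the stellate cell marker ACTA2 was listed at 0 in all 4. Of the markers of other cells that reached 1 TPM, CD68 was at 9.71 and 8.76 TPM in the Huh7 knockdown and control and, in the PLC/PRF/5 pair, at 13.0 and 27.0 TPM. PECAM1 had 1.87 and 1.97 TPM in the Huh7 knockdown and control, with 1.44 and 3.35 TPM in the PLC/PRF/5 pair. PDGFRB (4.96 and 10.2 TPM) and COL1A1 (1.90 and 3.06 TPM) reached 1 TPM in the Huh7 knockdown and control, and COL3A1 had 0.69 TPM in the PLC/PRF/5 knockdown against 2.36 TPM in the control. The part of the hepatocyte and other markers in the results on Wnt genes was not tested. The depth of the libraries is unknown, since TPM carries none. Lower expression in all cells and a smaller share of expressing cells cannot be told apart in such bulk values.

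The members above 100 TPM were intracellular, target and receptor genes, and the ligands were scarce. The highest level was that of CTNNB1, the beta-catenin gene, in Huh7 (481 TPM in the knockdown, 555 TPM in the control), and that of CCND1, a cyclin gene of the G1 phase, in PLC/PRF/5 (263 and 243 TPM). Between 34 and 35 members reached 1 TPM in each library, and between 5 and 6 reached 100 TPM. In Huh7, 10 members stayed under 1 TPM in both libraries, and in PLC/PRF/5, 11 did. Fold changes on the same log2 scale are given for the members with at least 1 TPM in 1 library of the pair. This scale understates the change of low genes, and with 1 library a group a fold change has no replicate check.

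**Figure D1:**
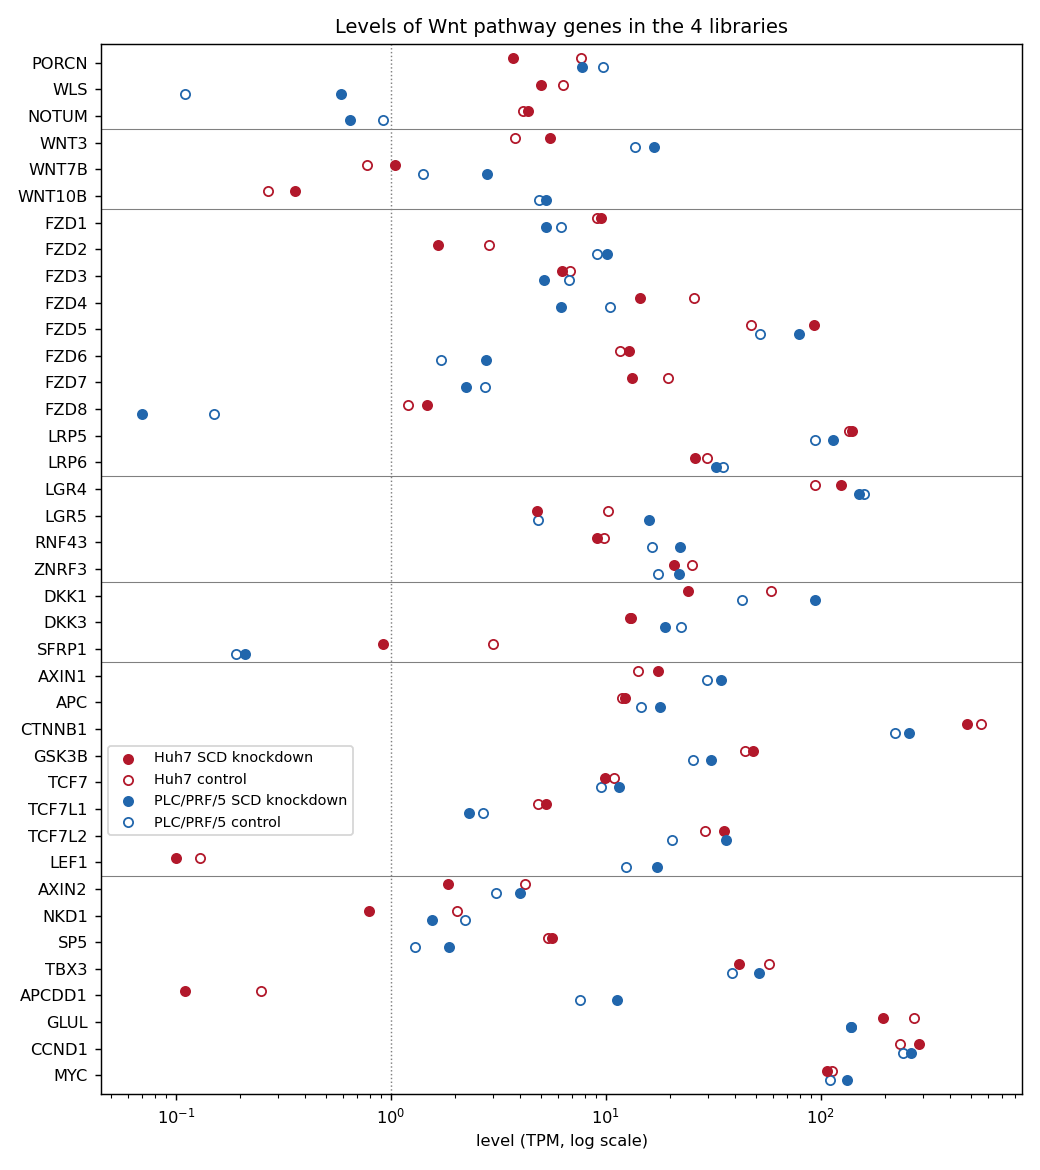
Levels in TPM, on a log axis, of the members that reached 1 TPM in at least 1 library, with filled points for SCD knockdown libraries and open points for controls, red for Huh7 and blue for PLC/PRF/5; grey lines separate the roles and the dotted line marks 1 TPM. FZD5 lies further right in the knockdown library of both lines, while DKK1 and LGR5 lie left of the control in the Huh7 pair and right of it in the PLC/PRF/5 pair.

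Few members differed 2-fold, and those that did were the secreted antagonists DKK1 and SFRP1 and the receptor LGR5. In Huh7, 0 of 36 members were at least 2-fold higher on this scale, where 3.1% of 13485 genes were, and 2 of 36 (DKK1 and SFRP1, 5.56%) were at least 2-fold lower, where 1.54% of genes were. Among 35 members in PLC/PRF/5, 2 (LGR5 and DKK1, 5.71%) were at least 2-fold higher, where 1.72% of 13057 genes were, and 0 were 2-fold lower, where 1.11% of genes were. Counts of 0 to 2 members are too small to set apart from these shares. They also moved with the settings: DKK1 was at 0.97 in PLC/PRF/5 after median-ratio scaling, and SFRP1 at -0.43 in Huh7 with a pseudocount of 5. With a pseudocount of 0.1, PORCN (-1.02), LGR5 (-1.08), AXIN2 (-1.15) and NKD1 (-1.27) were 2-fold lower in Huh7 as well. The median log2 fold change of the members was -0.08 in Huh7, beside 0.08 for all genes, and 0.27 in PLC/PRF/5, beside 0.10 for all genes.

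In Huh7 more members were lower than higher, and in PLC/PRF/5 more were higher than lower. Huh7 had 17 higher (47.2%) and 19 lower (52.8%) of 36 members, where 60.2% of all genes were higher and 39.7% lower. PLC/PRF/5 had 25 higher (71.4%) and 10 lower (28.6%) of 35, where 63.4% of all genes were higher and 36.5% lower. In the values as deposited, its excess of higher values was thus near that of genes in general. Of 32 members compared in both lines, 11 were higher in both knockdown libraries, 6 lower in both and 15 of opposite sign. Those are 34.4%, 18.8% and 46.9% of the members. Among all 12064 genes compared in both lines the shares were 46.5%, 22.4% and 31.0%. Of the 15, 11 had the lower value in the Huh7 knockdown and the higher one in the PLC/PRF/5 knockdown, among them GLUL, whose PLC/PRF/5 value was 0.00 after rounding. The other 4 had the reverse order. Among all genes of opposite sign, 2033 of 3735 had the order of the 11 and 1702 the reverse. Counts of 11 and 4 are small, and their difference from that split was not tested. Rescaling each library by its median ratio shifted all fold changes by about -0.09 in Huh7 and -0.14 in PLC/PRF/5. The members then split into 11 higher and 25 lower in Huh7 (median -0.18, beside -0.02 for all genes). In PLC/PRF/5 they split into 22 higher and 13 lower (median 0.12, beside -0.03 for all genes). The shares of all genes that were higher in a line were not counted with this scaling. Among the 32, 7 were then higher in both knockdown libraries, 9 lower in both and 16 of opposite sign. Of all 12064 genes, 3639 (30.2%) were then higher in both, 4495 lower in both and 3930 (32.6%) of opposite sign. Of the genes that differed 2-fold, 57.3% in Huh7 and 40.7% in PLC/PRF/5 were higher with this scaling, against 66.9% and 60.8% as deposited. Whether the lines differ was not tested, since 1 library a group leaves no error for it.

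**Figure D2:**
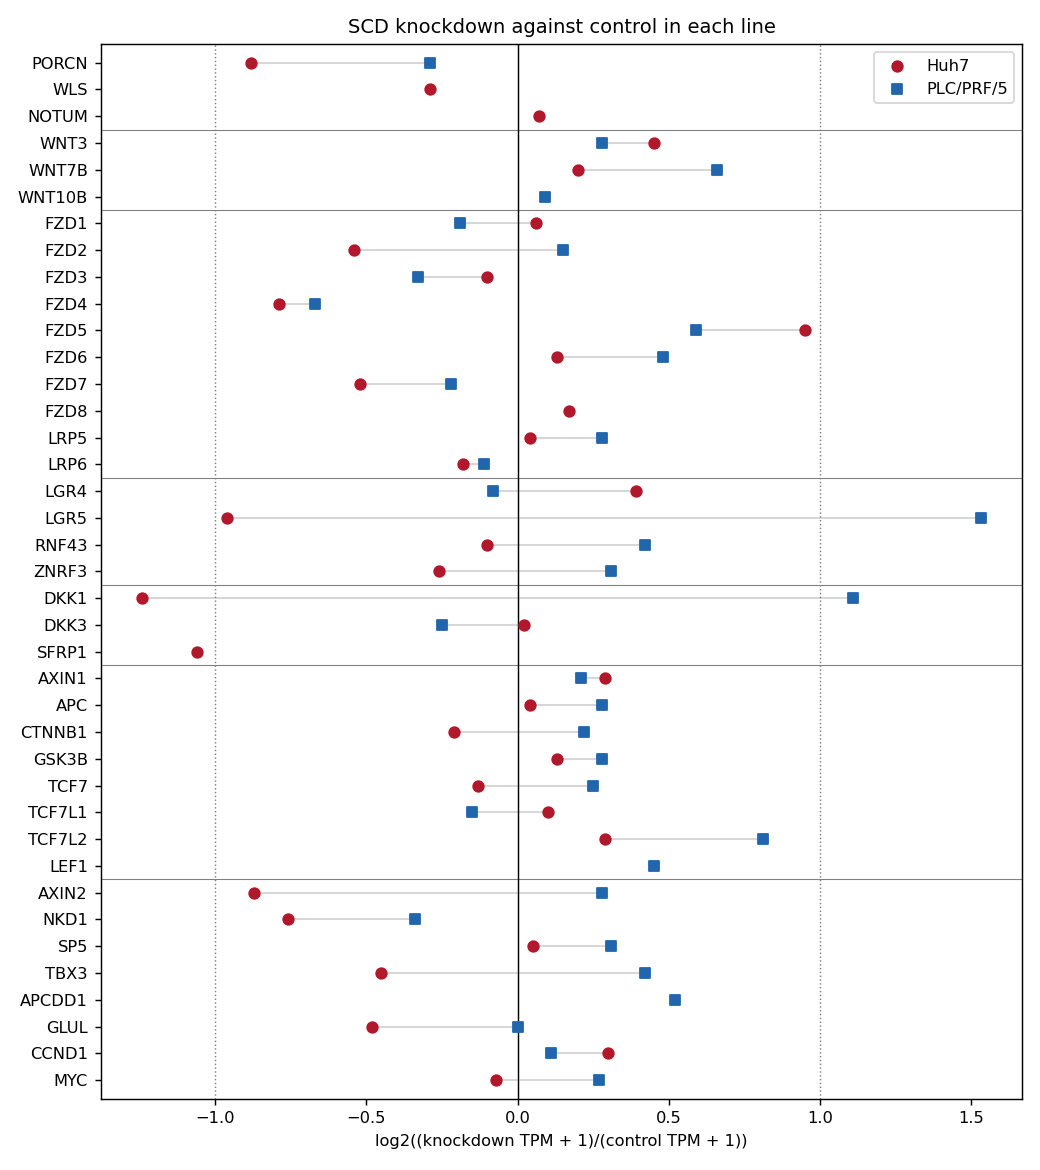
Log2 fold change of each member with at least 1 TPM in the pair, knockdown over control, with red circles for Huh7 and blue squares for PLC/PRF/5; grey bars join the lines and dotted lines mark a 2-fold difference. The longest bars belong to LGR5 (-0.96 and 1.53) and DKK1 (-1.24 and 1.11), and the bars of FZD4 and FZD5 stay on 1 side of 0.

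The difference common to both lines was tested with limma over 13813 genes, of which 38 were members, with cell line as a block. The p-values weigh each difference against how alike the differences in both lines were, not against variation between cultures. The spread used for a gene came more from all genes (3.71 prior degrees of freedom) than from that gene (1 residual degree of freedom). No member passed a Benjamini-Hochberg adjusted p of 0.05, with 0 called higher and 0 lower. SCD, the targeted gene, was not called either (mean log2 fold change -3.15, limma adjusted p = 0.128). A fit that does not call SCD cannot show that the members were unchanged. In the whole fit the shares called were 0% higher and 0.00724% lower. At an unadjusted limma p under 0.05 there were 2 members higher (FZD5 and TCF7L2), where 12.7% of genes were, and 2 lower (FZD4 and PORCN), where 5.24% of genes were. The counts of 2 of 38 members in each direction were thus below the share of all genes on the higher side and close to it on the lower side. The 8 members outside the fit were WNT5A, WNT5B, WNT10A, WNT11, DKK4, SFRP1, SFRP4 and SFRP5.

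Among the genes that prepare the ligand, PORCN, the porcupine acyltransferase, had the lower level in each knockdown library. It was at 3.72 TPM in the Huh7 knockdown against 7.66 TPM in the control, and at 7.77 TPM in the PLC/PRF/5 knockdown against 9.70 TPM in the control. Each knockdown library was below its own control, but the levels of the arms overlapped across the lines. The mean log2 fold change was -0.58 with a standard error of 0.21 (limma adjusted p = 0.268), from -0.88 in Huh7 and -0.29 in PLC/PRF/5. WLS, the carrier that takes lipid-bearing ligands to the cell surface, was at 5.01 TPM in the Huh7 knockdown and 6.36 TPM in the control. Its PLC/PRF/5 levels of 0.59 and 0.11 TPM in the knockdown and control were under the 1 TPM minimum. NOTUM, a secreted enzyme that removes the lipid again, was at 4.37 and 4.11 TPM in the Huh7 knockdown and control and at 0.65 and 0.92 TPM in PLC/PRF/5. Its fold change of 0.07 in Huh7 turned sign with median-ratio scaling.

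WNT3, a ligand of the beta-catenin branch, was the most abundant Wnt in every library. It was at 5.53 TPM in the Huh7 knockdown against 3.79 TPM in the control, and at 16.8 TPM in the PLC/PRF/5 knockdown against 13.6 TPM in the control. The knockdown library was the higher of each pair, with log2 fold changes of 0.45 and 0.28 (mean 0.36, standard error 0.16, limma adjusted p = 0.324). WNT3 made up 61.9% of the summed level of all 19 WNT genes in the Huh7 knockdown and 53.8% in the control, and 61.1% and 61.4% in the PLC/PRF/5 knockdown and control. WNT7B, another ligand that can act through beta-catenin, was at 1.05 and 0.78 TPM in the Huh7 knockdown and control and at 2.80 and 1.41 TPM in PLC/PRF/5 (log2 fold changes 0.20 and 0.66). WNT10B was at 5.30 and 4.92 TPM in the PLC/PRF/5 knockdown and control, a sign that flipped with the scaling, and under 1 TPM in Huh7. WNT5A, WNT5B and WNT11, which are best known for signals that bypass beta-catenin, and WNT10A were at 0.74 TPM or less in all 4 libraries, with WNT5A listed at 0 in the PLC/PRF/5 control.

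The Frizzled genes split: in each line the knockdown library had more FZD5 and less FZD4. FZD5, which serves Wnt ligands at the epithelial surface, was at 92.8 TPM in the Huh7 knockdown and 47.4 TPM in the control, and at 79.2 TPM in the PLC/PRF/5 knockdown and 52.3 TPM in the control. Both knockdown libraries were above both controls, by 1.96-fold in Huh7 and 1.51-fold in PLC/PRF/5. The mean log2 fold change was 0.77 with a standard error of 0.13 (limma adjusted p = 0.148). FZD4, which is also the receptor of the ligand norrin, was at 14.4 TPM in the Huh7 knockdown and 25.6 TPM in the control. The PLC/PRF/5 levels were 6.22 and 10.4 TPM in the knockdown and control. Each knockdown library was lower than its control, by 1.78-fold and 1.68-fold, although the arms overlapped between lines. The mean log2 fold change of FZD4 was -0.73 with a standard error of 0.15 (limma adjusted p = 0.177). The adjusted p over the alternative settings ranged from 0.118 to 1 for FZD5 and from 0.139 to 1 for FZD4. FZD4 shares exonic sequence with PRSS23, a protease gene on the opposite strand, and the strand setting of the counting is not given in the sources used here. PRSS23 was at 75.1 and 22.8 TPM in the Huh7 knockdown and control and at 133 and 95.0 TPM in PLC/PRF/5, so it was higher where FZD4 was lower. Unless the counting was stranded, reads from the shared stretch cannot be told apart. The 250 bases before the RefSeq start of each gene are shown because FZD5 and FZD4 were the Frizzled genes with the highest and the lowest mean fold change. They lie at chr2:207769907-207770156 (FZD5) and chr11:86955396-86955645 (FZD4), both on the minus strand of GRCh38.p14, and are written 5′ to 3′.
FZD5: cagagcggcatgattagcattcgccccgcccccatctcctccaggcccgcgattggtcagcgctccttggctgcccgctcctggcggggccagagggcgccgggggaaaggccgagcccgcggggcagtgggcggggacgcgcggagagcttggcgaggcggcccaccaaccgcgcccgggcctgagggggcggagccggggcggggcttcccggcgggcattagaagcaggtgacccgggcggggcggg
FZD4: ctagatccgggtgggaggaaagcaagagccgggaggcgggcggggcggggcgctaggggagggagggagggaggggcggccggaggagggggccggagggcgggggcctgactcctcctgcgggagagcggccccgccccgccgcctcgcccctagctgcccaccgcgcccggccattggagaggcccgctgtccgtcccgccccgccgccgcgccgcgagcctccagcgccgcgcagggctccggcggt
Both stretches are rich in G and C, at 76.8% in FZD5 and 80.8% in FZD4.

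FZD5 made up a larger part of the Frizzled transcripts in the knockdown libraries. Its share of the summed level of the 8 FZD members was 60.9% in the Huh7 knockdown against 38.2% in the control, and 71.2% in the PLC/PRF/5 knockdown against 58.5% in the control. Without FZD5 the sum was 59.5 and 76.9 TPM in the Huh7 knockdown and control and 32.0 and 37.1 TPM in PLC/PRF/5. FZD7, a Frizzled gene often studied in liver tumours, was at 13.3 TPM in the Huh7 knockdown against 19.5 TPM in the control, and at 2.23 TPM in the PLC/PRF/5 knockdown against 2.75 TPM in the control. FZD3 was at 6.27 and 6.81 TPM in the Huh7 knockdown and control, and the PLC/PRF/5 pair had 5.16 and 6.77 TPM. Both were thus lower in each knockdown library (log2 fold changes -0.52 and -0.22 for FZD7, -0.10 and -0.33 for FZD3), and FZD6 was higher in each (0.13 and 0.48). FZD2 was at 1.66 TPM in the Huh7 knockdown against 2.86 TPM in the control, and at 10.2 TPM in the PLC/PRF/5 knockdown against 9.09 TPM in the control. FZD2 (-0.54 and 0.15) and FZD1 (0.06 and -0.19) had opposite signs in the lines, and the sign of FZD1 in Huh7 flipped with median-ratio scaling. FZD8 reached 1 TPM in Huh7, at 1.47 and 1.20 TPM in the knockdown and control. LRP5, a co-receptor gene, was at 140 and 135 TPM in the Huh7 knockdown and control and at 114 and 94.0 TPM in PLC/PRF/5, with a sign in Huh7 that also flipped with the scaling. LRP6 was at 25.9 and 29.5 TPM in the Huh7 knockdown and control and at 32.6 and 35.2 TPM in PLC/PRF/5.

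**Figure D3:**
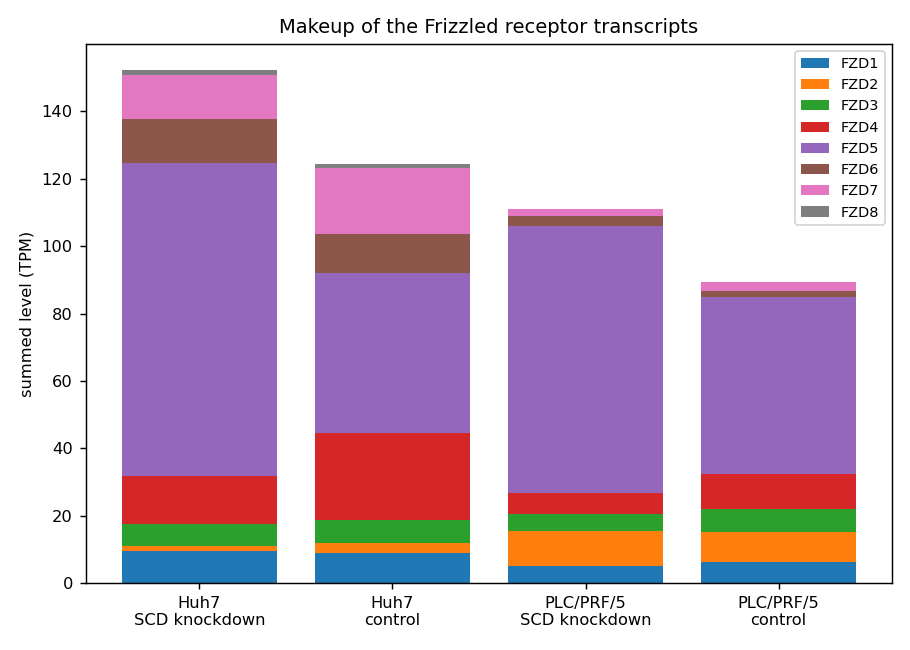
Stacked levels in TPM of the 8 Frizzled members in each library, knockdown left of control for each line. The FZD5 segment is 92.8 TPM in the Huh7 knockdown against 47.4 TPM in the control and 79.2 against 52.3 TPM in PLC/PRF/5, and the FZD4 segment is the smaller one in each knockdown bar.

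The R-spondin module, which sets how many Frizzled receptors stay at the surface, showed opposite signs in the lines for 4 of its 4 genes, where 31.0% of all genes did, a count too small to set apart from that share. LGR5, an R-spondin receptor, a stem cell marker and itself a Wnt target, was at 4.80 TPM in the Huh7 knockdown against 10.3 TPM in the control. The PLC/PRF/5 knockdown had 16.0 TPM, against 4.86 TPM in the control. It was 2.14-fold lower in Huh7 and 3.29-fold higher in PLC/PRF/5 by the TPM ratio (log2 fold changes -0.96 and 1.53). RNF43 and ZNRF3 encode the ubiquitin ligases that remove Frizzled and are Wnt targets as well. RNF43 was at 9.12 and 9.84 TPM in the Huh7 knockdown and control and at 22.3 and 16.4 TPM in PLC/PRF/5. It shares exonic sequence with SUPT4H1, a gene on the same strand, which was at 86.1 to 100 TPM in the 4 libraries. Stranded counting alone cannot tell apart reads from that stretch. ZNRF3 was at 20.9 and 25.1 TPM in the Huh7 knockdown and control and at 22.0 and 17.5 TPM in PLC/PRF/5. LGR4, the other R-spondin receptor of the list, had the reverse signs, with log2 fold changes of 0.39 and -0.08. It was the most abundant of the module, at 124 and 94.6 TPM in the Huh7 knockdown and control and at 151 and 159 TPM in PLC/PRF/5.

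Among secreted antagonists, DKK1 had the same opposite pattern. DKK1, which binds LRP5 and LRP6 and is a Wnt target, was at 24.2 TPM in the Huh7 knockdown against 58.6 TPM in the control, and at 94.0 TPM in the PLC/PRF/5 knockdown against 43.0 TPM in the control. The control libraries were close to each other, and the knockdown libraries lay on either side of them. DKK1 was 2.42-fold lower in Huh7 and 2.19-fold higher in PLC/PRF/5 (log2 fold changes -1.24 and 1.11). An opposite sign with a 2-fold difference in at least 1 line was seen for 2 of 32 members, LGR5 and DKK1, and for 1.24% of all genes compared in both lines. A count of 2 is too small to set apart from that share. SFRP1, which captures Wnt ligands outside the cell, was at 0.92 TPM in the Huh7 knockdown and 2.99 TPM in the control, with 0.21 and 0.19 TPM in the PLC/PRF/5 pair. DKK3, a divergent member of the family, was at 13.2 and 12.9 TPM in the Huh7 knockdown and control with 18.8 and 22.5 TPM in the PLC/PRF/5 pair. The DKK3 sign in Huh7 flipped with median-ratio scaling (log2 fold change 0.02 as deposited). DKK4, SFRP4 and SFRP5 did not exceed 0.37 TPM in any library, and DKK4 was listed at 0 in the PLC/PRF/5 control.

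The promoters of DKK1 and SP5 are shown because theirs were the windows of the list that held a core sequence bound by TCF and LEF factors. The cores searched were CTTTGAT and CTTTGAA on both strands, in windows from 250 bases before to 50 after each RefSeq start. Windows were at hand for 27 members (37 windows), of which 2 (5.41%) held a core, against 6.86% of 35116 windows of all genes. The 250 bases before the start are written 5′ to 3′ with the cores in capitals, for DKK1 from chr10:52314031-52314280 and for SP5 from chr2:170715087-170715336, both on the plus strand of GRCh38.p14.
DKK1: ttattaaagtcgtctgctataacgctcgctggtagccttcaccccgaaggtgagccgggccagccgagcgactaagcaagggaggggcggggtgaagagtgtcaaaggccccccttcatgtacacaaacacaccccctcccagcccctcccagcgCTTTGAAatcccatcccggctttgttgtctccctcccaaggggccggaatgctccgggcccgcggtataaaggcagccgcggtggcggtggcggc
SP5: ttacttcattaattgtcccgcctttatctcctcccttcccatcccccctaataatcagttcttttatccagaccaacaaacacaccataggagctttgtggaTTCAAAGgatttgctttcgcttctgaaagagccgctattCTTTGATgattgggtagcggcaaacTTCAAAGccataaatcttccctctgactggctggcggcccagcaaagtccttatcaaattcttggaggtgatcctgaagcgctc
DKK1 holds 1 core, which begins 95 bases before the start, and SP5 holds 3, which begin 148, 109 and 84 bases before it. A core is a match of letters, not a measured binding site.

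**Figure D4:**
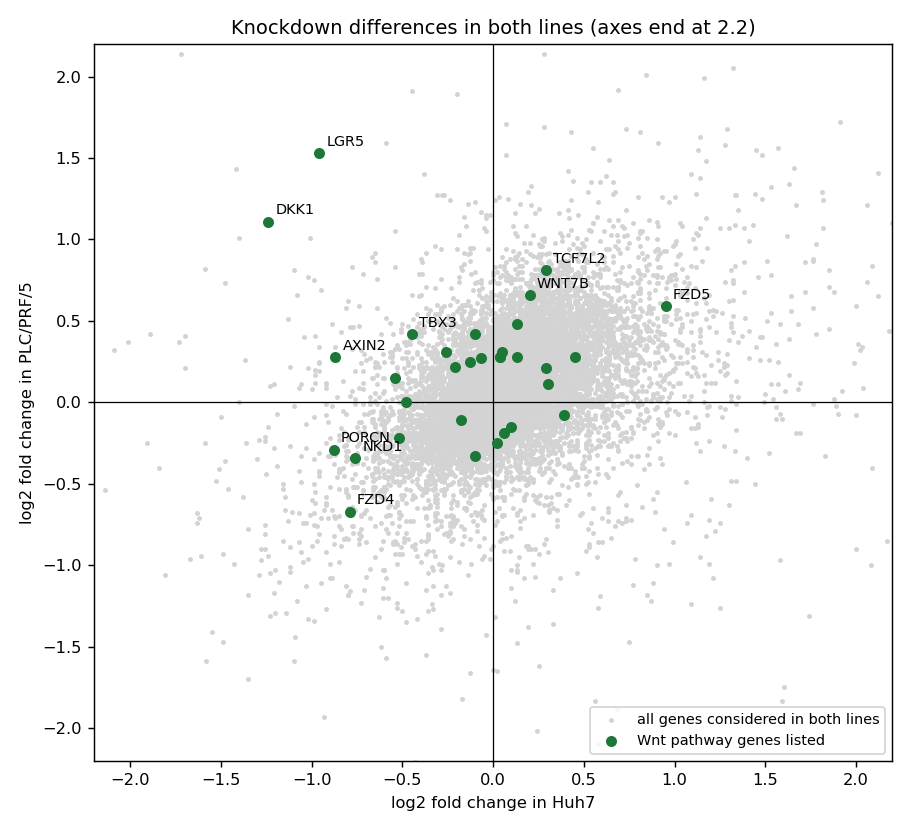
Log2 fold change in Huh7 (x axis) against that in PLC/PRF/5 (y axis) for 12064 genes considered in both lines (grey) and 32 members (green); 36 genes lie outside the axes, which end at 2.2. LGR5, DKK1, AXIN2 and TBX3 lie in the upper left, with a negative value in Huh7 and a positive one in PLC/PRF/5, while FZD5 lies in the upper right and FZD4 in the lower left.

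Of the intracellular genes, TCF7L2 had the highest fold change in PLC/PRF/5, and none reached 2-fold in either line. CTNNB1 was at 481 and 555 TPM in the Huh7 knockdown and control and at 259 and 222 TPM in PLC/PRF/5, with log2 fold changes of -0.21 and 0.22. Of the complex that degrades beta-catenin, the scaffold gene AXIN1 (log2 fold changes 0.29 and 0.21) and the kinase gene GSK3B (0.13 and 0.28) were higher in both knockdown libraries. AXIN1 was at 17.5 and 14.1 TPM in the Huh7 knockdown and control with 34.5 and 29.7 TPM in the PLC/PRF/5 pair. The tumour suppressor gene APC had 0.04 and 0.28, with a sign in Huh7 that flipped with median-ratio scaling. TCF7L2, the most abundant of the TCF and LEF genes in every library, was at 35.7 TPM in the Huh7 knockdown and 29.0 TPM in the control, and at 36.5 TPM in the PLC/PRF/5 knockdown and 20.3 TPM in the control. Both knockdown libraries were above both controls, with log2 fold changes of 0.29 and 0.81 (mean 0.55, standard error 0.17, limma adjusted p = 0.223). TCF7, an activating factor, had values of -0.13 and 0.25, and TCF7L1, a repressor, of 0.10 and -0.15. LEF1 was at 17.3 and 12.4 TPM in the PLC/PRF/5 knockdown and control (log2 fold change 0.45) but at 0.10 and 0.13 TPM in Huh7.

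Of the targets, 2 of 7 were higher and 5 lower in the Huh7 knockdown, whereas 7 of 8 were higher and 1 lower in the PLC/PRF/5 knockdown, with the signs of SP5 in Huh7 and of GLUL and CCND1 in PLC/PRF/5 turning under median-ratio scaling. Of all genes, 60.2% were higher in Huh7 and 63.4% in PLC/PRF/5, and counts among 7 and 8 targets are too small to set apart from these shares. The median log2 fold change of the targets was -0.45 in Huh7, beside 0.08 for all genes, and 0.27 in PLC/PRF/5, beside 0.10 for all genes. AXIN2, the target most often read as a gauge of the pathway and an inhibitor of it, was at 1.85 TPM in the Huh7 knockdown against 4.22 TPM in the control. The PLC/PRF/5 knockdown had 3.98 TPM, against 3.10 TPM in the control (log2 fold changes -0.87 and 0.28). The knockdown library was thus the lower in Huh7 and the higher in PLC/PRF/5. TBX3, a transcription factor gene, followed the same order, at 41.8 and 57.3 TPM in the Huh7 knockdown and control and at 51.9 and 38.6 TPM in PLC/PRF/5. NKD1, another feedback inhibitor, was lower in both lines, at 0.79 and 2.04 TPM in the Huh7 knockdown and control and at 1.55 and 2.22 TPM in PLC/PRF/5. Its mean log2 fold change was -0.55 with a standard error of 0.21 (limma adjusted p = 0.282). GLUL, the glutamine synthetase gene of hepatocytes near the central vein, was at 195 and 272 TPM in the Huh7 knockdown and control, and at 139 TPM in both PLC/PRF/5 libraries. SP5, a transcription factor gene, was at 5.61 and 5.38 TPM in the Huh7 knockdown and control and at 1.86 and 1.30 TPM in PLC/PRF/5. APCDD1, an inhibitor at the cell surface, was at 11.3 and 7.58 TPM in the PLC/PRF/5 knockdown and control and at 0.11 and 0.25 TPM in Huh7. CCND1 was at 287 and 234 TPM in the Huh7 knockdown and control, and MYC, a growth regulator with many other inputs, at 108 and 113 TPM. The PLC/PRF/5 pair had 263 and 243 TPM of CCND1 and 133 and 111 TPM of MYC in the knockdown and control. Their log2 fold changes were 0.30 and 0.11 for CCND1 and -0.07 and 0.27 for MYC.

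Between the lines, many members differed, as did many genes in general. In the same limma fit, 22 of 38 members (57.9%) differed between Huh7 and PLC/PRF/5 at an adjusted p of 0.05, where 59.8% of all genes did. Of the 22, 13 were higher and 9 lower in Huh7, beside 28.3% and 31.5% of all genes. WLS, NOTUM, WNT10B, FZD8, LEF1 and APCDD1, which are 6 of the 22, entered the fit through 1 line only. Their levels had to lie on either side of 1 TPM in the lines, which favours a difference but does not force a call. Of the other 32 members 16 differed (50.0%), 10 higher and 6 lower in Huh7. The share of all genes was not freed of genes that entered through 1 line, so it is no like comparison for these 32. The residual of this comparison is how alike the line difference was in both arms, not variation between cultures. On the log2 scale, Huh7 over PLC/PRF/5, FZD7 (2.30) and FZD6 (2.05) were higher in Huh7, with adjusted p-values of 9.6e-04 and 0.00139 in limma, and FZD2 (-1.73) and WNT3 (-1.53) were lower. FZD5 (0.04), TCF7 (-0.01) and CCND1 (0.04) had limma adjusted p-values of 0.782, 0.973 and 0.755 between the lines.

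Other genes of the pathway, 66 from a list outside the 46, gave 1 gene 2-fold higher and 2 lower among 32 considered in the Huh7 pair, and 3 higher and 0 lower among 37 in the PLC/PRF/5 pair. The shares of all genes were 3.1% higher and 1.54% lower in Huh7 and 1.72% and 1.11% in PLC/PRF/5. None of the 39 in the limma fit passed (lowest adjusted p = 0.129), and 6 were higher and 5 lower at an unadjusted p under 0.05, where 12.7% and 5.24% of all genes were. Secreted or surface inhibitors stood among those 2-fold lower in Huh7: KREMEN1, a partner of DKK1 at the cell surface, was at 4.09 and 9.64 TPM in the knockdown and control, and FRZB, a ligand trap, at 1.07 and 3.75 TPM. WIF1, another ligand trap, was at 19.1 TPM in the PLC/PRF/5 knockdown against 5.10 TPM in the control. ASCL2, a stem cell factor gene and Wnt target of the gut, was at 10.3 and 4.04 TPM in the same pair and listed at 0 in both Huh7 libraries. CYP2E1, an enzyme of hepatocytes near the central vein, was at 1.36 and 0.11 TPM in the PLC/PRF/5 knockdown and control. CD44, an adhesion gene, was higher in both knockdown libraries, at 13.9 and 6.43 TPM in the Huh7 knockdown and control and at 3.57 and 1.54 TPM in PLC/PRF/5. JUN had log2 fold changes of 0.67 and 0.96 (limma adjusted p = 0.129). TLE2, a co-repressor of TCF factors, had log2 fold changes of -0.80 and -0.65 (limma adjusted p = 0.181). The R-spondin ligand genes RSPO1, RSPO2, RSPO3 and RSPO4 were at 0.67 TPM or less in all 4 libraries.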

How the data were processed

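Total RNA of 4 cultures was sequenced, per the labels' protocols. The authors deposited 1 table a library with TPM by gene symbol, per the file headers, and the values have up to 2 decimals. Tools and build listed without roles are, per the submitters' processing notes, cutadapt, RSEM 1.2.21 and hg19. What aligned the reads, with which annotation and strand setting, is not given in the sources used here. TPM carries no depth, and a large change in abundant transcripts moves every other value.

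Fold changes within a line were log2((knockdown TPM + 1)/(control TPM + 1)), with 2-fold as a rule of size. The difference common to both lines, and that between the lines, were fitted to log2(TPM + 1) by limma 3.58.1 (R 4.3.3) over the 13813 genes that reached 1 TPM in 2 or more libraries, with cell line and knockdown as terms, a variance trend, 1 residual and 3.71 prior degrees of freedom, two-sided, with Benjamini-Hochberg adjustment over all genes. Nothing states that cultures were separate experiments. Libraries of the same cell line were paired by line. The fit was tested on simulated data with large differences that were alike in both lines, so that test does not cover small or opposite ones. Nor does it show that large ones are called in these data. SCD, with log2 fold changes of -3.67 and -2.64, was not called (limma adjusted p = 0.128). Alternatives were pseudocounts of 0.1 and 5, a minimum of 5 TPM or none, median-ratio scaling, no variance trend, and models without the line or the knockdown term. The members, lists and tests were chosen with earlier results of these data known. Named genes were all members, SCD, SCD5, and from the list of other pathway genes those 2-fold different in a line and the 2 highest and 2 lowest mean fold changes; RSPO1 to RSPO4 and the genes under other observations were chosen after their values were seen. The planned search of ligand proteins for the acylation motif was not made, and protein sequences were not used here. Promoter windows came from RefSeq (GRCh38.p14) and gene overlaps from GENCODE 29, both for sequence and annotation only. Python 3.11.15 and matplotlib 3.10.9 drew the plots.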

Additional observations from a re-analysis of the deposited data

Results flagged for a closer look

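DKK1 and LGR5 had opposite signs in the lines, with a difference of at least 2-fold in at least 1 of them, and that difference between the lines was not tested. The log2 fold change of DKK1 was -1.24 in Huh7 and 1.11 in PLC/PRF/5. That of LGR5 was -0.96 in Huh7 and 1.53 in PLC/PRF/5. Each value rests on 1 knockdown and 1 control library.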

How the results depend on the processing

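No member was called in the across-line limma fit under any of the 7 alternatives. Without the replicate block (cell line term left out) the number of genes called in the whole fit was 0, and it was 0 with a pseudocount of 5, without a filter and without the variance trend, and 2 with a pseudocount of 0.1, against 1 in the fit reported. The libraries were paired by cell line, and the block changed no call of a member. With a pseudocount of 0.1, Huh7 had 695 genes at least 2-fold higher and 370 lower, PLC/PRF/5 had 480 and 248, and 6 members were 2-fold lower in Huh7. With a pseudocount of 5 Huh7 had 155 and 92, PLC/PRF/5 had 68 and 55, and 1 member was 2-fold lower in Huh7, as with a minimum of 5 TPM (1 member). Median-ratio scaling gave 224 genes 2-fold lower in PLC/PRF/5 and 1 member 2-fold higher there. The log2 fold change of DKK1 in PLC/PRF/5 was then 0.97. The cause of these shifts was not tested, except that a pseudocount compresses low values by construction. Over all results for single members, 839 comparisons with an alternative kept their side of the threshold and 20 did not, of which 13 were differences between the lines. The 839 are no measure of robustness. A filter setting leaves a fold change within a line as it was. Of the 839, 259 were calls of the across-line fit, which called few genes under any setting. No called value changed sign. Leaving out a library left no residual degrees of freedom, so no such fit was made. TPM gives no depth, so levels under 1 TPM have no counting error here.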

Other observations

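Of the intracellular regulators of the pathway outside the 46 genes, 18 were compared in both lines, of which 11 were higher in both knockdown libraries, 4 lower in both and 3 of opposite sign (DVL1, CSNK1A1 and PYGO1). These are 61.1%, 22.2% and 16.7%, beside 46.5%, 22.4% and 31.0% of all genes. Counts among 18 genes are too small to set apart from these shares. In Huh7, DVL3 and GSK3A (0.04 each) and TNKS2 (0.02), among the 11, had values smaller in size than the median-ratio shift of -0.09. The 18 were not recounted with that scaling, under which 30.2% of all genes were higher in both. The genes named next were picked with their values in view, because both lines gave them the same sign. TLE1, a co-repressor gene, was at 90.2 and 59.0 TPM in the Huh7 knockdown and control and at 44.9 and 34.4 TPM in PLC/PRF/5. TLE3 was at 15.6 and 30.2 TPM in the Huh7 knockdown and control while the PLC/PRF/5 pair had 15.0 and 19.1 TPM. The mean log2 fold change was 0.49 for TLE1 and -0.62 for TLE3, with limma adjusted p-values of 0.181 and 0.223. The casein kinase genes CSNK1D (log2 fold changes 0.36 and 0.42) and CSNK1E (0.22 and 0.48) and the beta-catenin co-activator gene BCL9L (0.26 and 0.42) were higher in both knockdown libraries.

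OAT, the ornithine aminotransferase gene of hepatocytes near the central vein, was at 86.2 and 152 TPM in the Huh7 knockdown and control and at 272 and 393 TPM in PLC/PRF/5. Its mean log2 fold change was -0.67 with a standard error of 0.10 (limma adjusted p = 0.143), lower in both lines. GPC3, a glypican gene that marks hepatocellular carcinoma, was at 1071 and 1182 TPM in the Huh7 knockdown and control and at 44.9 and 66.3 TPM in PLC/PRF/5 (limma adjusted p = 0.262).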
